A study of Macaca mulatta with 51 samples.

Results

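The mitochondrial ribosomal proteins were taken as every row of the gene count table whose human gene symbol has the form MRPL or MRPS followed by a number and at most 1 letter. The rule gave 72 of 16033 genes, 45 named for the large subunit (MRPL) and 27 for the small subunit (MRPS). It used symbols only and no measured value. In each tissue, 71 of the 72 passed the filter on low counts and were tested. The remaining member, MRPS24, had 0 to 3 counts per library in adipose tissue and 0 to 2 in muscle, so it was near the limit of detection and was not tested. The family members MRPL20, MRPL21, MRPL33, MRPL45, MRPS6 and MRPS31 were not analysed here.

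The mitochondrial ribosome, or mitoribosome, translates the few messenger RNAs encoded by mitochondrial DNA, all of which give subunits of the oxidative phosphorylation complexes. Its RNA comes from the mitochondrial genome, whereas its proteins are encoded in the nucleus, translated in the cytosol and imported. Some of these proteins descend from bacterial ribosomal proteins and others were added in the mitochondrial lineage. Skeletal muscle is rich in mitochondria, and white adipose tissue holds fewer of them.

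RNA was sequenced from punch biopsies of subcutaneous adipose tissue (AT) and gastrocnemius skeletal muscle (SM) of 10 rhesus macaques made obese by diet and without diabetes. They were 5 males and 5 females whose ovaries had been removed, aged 11 to 22 years, and all had eaten a high-fat diet for 2 years or more. Every animal received daily subcutaneous human FGF21 at rising doses for 12 weeks, with 1 animal held at a lower final dose, so each animal was its own control and there was no untreated arm. The 3 time points were pre-treatment, post-treatment (at the end of the 12 weeks) and washout (16 weeks after treatment stopped). Counts were analysed for 27 AT libraries from 10 animals (10 pre-treatment, 9 post-treatment, 8 washout) and 21 SM libraries from 8 animals (6, 8 and 7); 3 further labelled SM samples had no count column and were not analysed. Effects of FGF21, of the weight the animals lost, and of time itself cannot be told apart in this design.

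Library totals ran from 15756491 to 23940980 counts in AT and from 14455195 to 21740711 in SM. The tissue labels were checked against marker genes. Summed muscle fiber markers stood at 69700 to 312000 CPM (counts per 1000000 counts of a library, with library sizes scaled by TMM) in SM and at 81.7 to 535 CPM in AT. Summed markers of mature adipocytes (4 of 7 genes in the table) stood at 9440 to 32400 CPM in AT. In 4 of 8 post-treatment SM libraries, those of animals 21189, 24849, 21866 and 20275, the muscle fiber sum was 69700, 121000, 122000 and 144000 CPM, below the 169000 CPM of the lowest pre-treatment or washout SM library. The numbers in the library identifiers fall into 3 series, here called first, middle and last; what they mark is not given in the sources used here. They were spread unevenly, since 5 of 8 post-treatment SM libraries and 0 of 7 washout SM libraries were in the first series.

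In AT, the members differed little between pre- and post-treatment, and those that passed the test were lower after treatment. A gene was called differentially expressed (DE) when its adjusted p in edgeR's quasi-likelihood test was under 0.05 and its log2 fold change was beyond 0.26 in either direction. By this rule 5 of 71 members (7.04%) were DE, all 5 lower post-treatment, where 8.49% of all 13367 genes tested in AT were DE lower and 15.5% were DE in either direction. The 5 were MRPL12 and MRPL40 of the large subunit, MRPS12 and MRPS27 of the small subunit, and MRPS36. The share of DE members was thus not above that of all genes. At an unadjusted p under 0.05, 15 members were lower and 2 higher, where 16% and 18.3% of all genes were, and 3 members were lower in every one of the 9 animals with both libraries (4.23%, against 5.04% of all genes). The count rested on single animals. Without animal 22130 it was 0 of 71, with 11 members lower at an unadjusted p under 0.05, while 805 of all genes tested were still DE. The share of all genes at that unadjusted p was not computed in this fit. The count of DE members was 2 without animal 20275, 21189 or 24849 and 3 without animal 20261. For these fits the share of all genes DE is not given here.

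**Figure D1:**
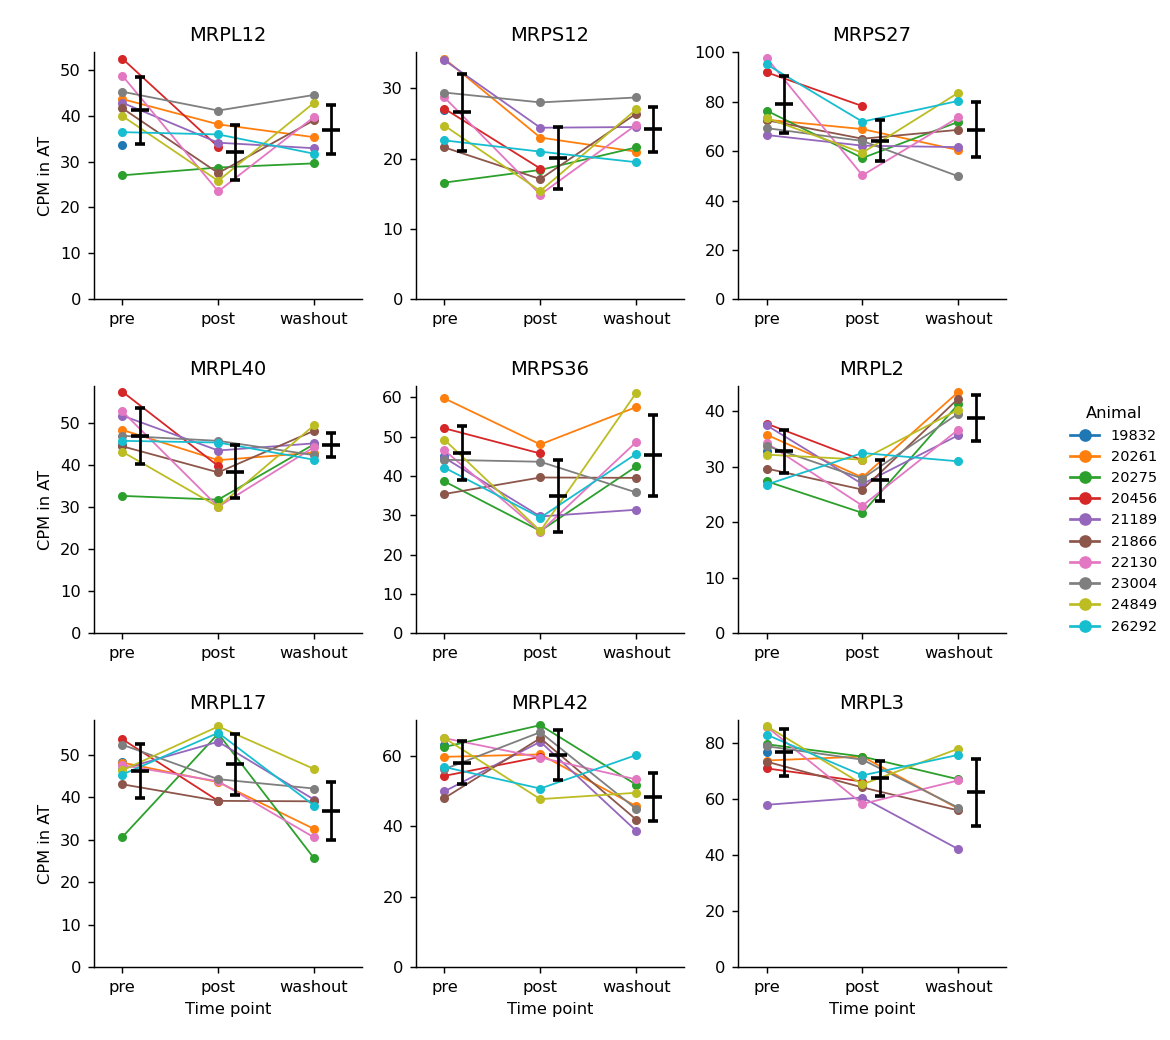
CPM (TMM-scaled, linear axis) in AT of 9 members DE in at least 1 AT comparison, by time point; thin lines join the libraries of 1 animal and the black marks give the mean ± SD. MRPL12, MRPS12, MRPS27, MRPL40 and MRPS36 had lower post-treatment means, with overlapping ranges, and MRPL2 had its highest mean at washout.

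MRPL12 is the protein of the flexible stalk that recruits translation factors, and it also binds the mitochondrial RNA polymerase. Its level had a lowest, median and highest value of 27, 42.2 and 52.4 CPM over the 10 pre-treatment libraries and of 23.5, 33.2 and 41.1 CPM over the 9 post-treatment libraries. The ranges overlapped, and the level was lower in 8 of 9 animals with both libraries. The log2 fold change was -0.38 (SE 0.106, adjusted p = 0.0232, edgeR's quasi-likelihood test). At washout the level ran from 29.6 to 44.5 CPM with a median of 37.2 CPM. MRPS12, the counterpart of the bacterial protein at the decoding centre, had a median of 27 CPM (range 16.6 to 34.2) pre-treatment and 18.6 CPM (14.9 to 28) post-treatment. It was lower in 8 of 9 animals (log2 fold change -0.40, SE 0.118, adjusted p = 0.0301).

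MRPS27, a pentatricopeptide repeat protein of the small subunit, went from a median of 73.4 CPM (66.5 to 97.7) to 64.1 CPM (50.2 to 78.2) and was lower in 9 of 9 animals. Its log2 fold change was -0.30 (SE 0.0911, adjusted p = 0.0324). MRPL40, in the central protuberance that faces the small subunit, went from a median of 46.4 CPM (32.7 to 57.5) to 39.8 CPM (30.1 to 45.8), again lower in 9 of 9 animals, at -0.29 in log2 fold change (SE 0.0951, adjusted p = 0.0437). MRPS36 keeps its ribosomal name, but its protein has been reassigned to the 2-oxoglutarate dehydrogenase complex of the citric acid cycle. Its median was 44.9 CPM (35.4 to 59.7) pre-treatment and 29.7 CPM (25.8 to 48) post-treatment, and it was lower in 8 of 9 animals (log2 fold change -0.41, SE 0.124, adjusted p = 0.0339). For each of these genes the pre- and post-treatment ranges overlapped, so the change was read within animals.

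Most of the other members lay below 0 by small amounts. In all, 57 of 71 members (80.3%) had a fitted log2 fold change below 0, where 45.7% of all genes did, and the median was -0.0952 for the members and 0.0292 for all genes. By symbol, MRPL genes were on this side in 37 of 45 cases and MRPS genes in 20 of 26. The values were small beside those of the transcriptome: 51 of 71 members lay between the quartiles of all genes (log2 fold change -0.179 and 0.232), and no member lay outside the 5th to 95th percentiles of all genes (-0.713 and 0.673).

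**Figure D2:**
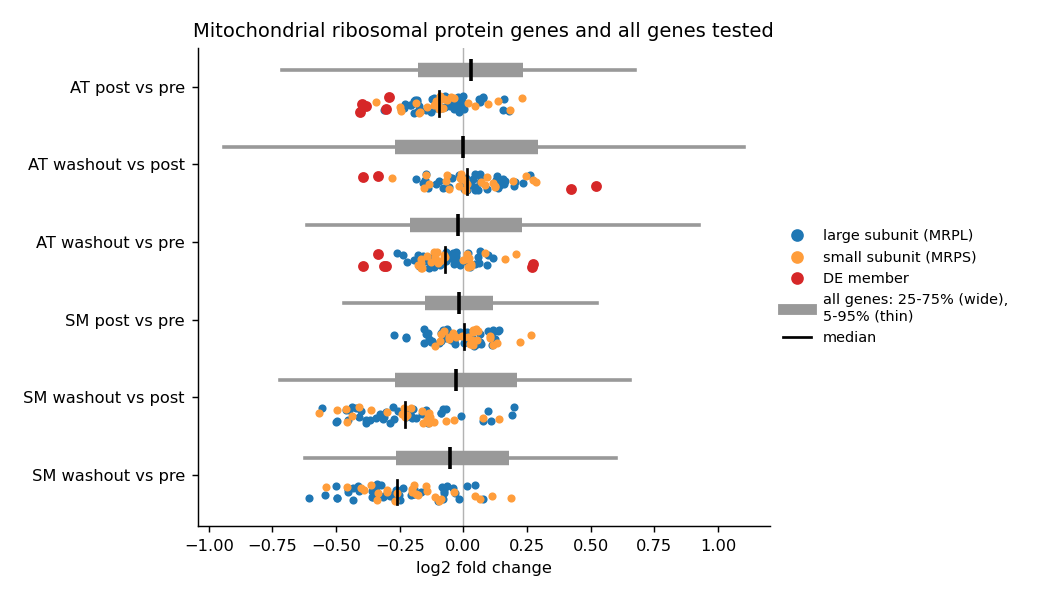
Log2 fold change of the 71 tested members (points, blue MRPL, orange MRPS, red for DE members) in 3 AT and 3 SM comparisons, beside bars for the 5th to 95th and 25th to 75th percentiles of all genes tested. The members' median was -0.0952 in AT post- against pre-treatment, and in SM it was -0.229 for washout against post-treatment and -0.261 for washout against pre-treatment.

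By role, the members of the peptidyl transferase core were fitted below 0 in 5 of 5 cases, from MRPL2 at -0.25 to MRPL16 at -0.02, and none was DE. In the central protuberance 5 of 5 were below 0 and 1, MRPL40, was DE; MRPL48 passed on adjusted p (0.0487) but its log2 fold change of -0.23 was inside the fold limit. Among the tested proteins of the decoding centre and messenger RNA channel, 5 of 5 were below 0 (MRPS2 -0.25, MRPS5 -0.19, MRPS7 -0.17 and MRPS11 -0.17 beside MRPS12). At the exit tunnel, where the new chain leaves the ribosome, 4 of 5 were below 0 and MRPL17 was at 0.06. The stalk was not uniform, since MRPL10 was at -0.03 and MRPL11 at 0.08 while MRPL12 was DE. The 3 paralogs of bacterial S18, which occupy different places in the mitoribosome, also differed in sign, with MRPS18A at 0.23 (adjusted p = 0.105), MRPS18B at -0.14 and MRPS18C at -0.04, none DE.

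MRPS30 and MRPS18A carry small subunit names but sit in the large subunit. They were fitted above 0, and neither was DE. MRPS30 had a median of 19.5 CPM (17.6 to 25) pre-treatment and 21.5 CPM (17.2 to 27.4) post-treatment, higher in 7 of 9 animals, with a log2 fold change of 0.18 (adjusted p = 0.0847). Proteins with a bacterial counterpart were below 0 in 33 of 39 tested genes, 2 of them DE, and proteins particular to mitochondria in 19 of 25, also with 2 DE.

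The mean change over the 71 members was taken within each animal to see how evenly it was shared. It averaged -0.0974 on the log2 scale (SD 0.173, n = 9 animals) and was below 0 in 6 of 9. It ran from -0.427 in animal 22130 to 0.159 in animal 20275. Animal 22130 was also the only animal whose pre- and post-treatment AT libraries were in different identifier series. Among the 8 animals with both libraries in 1 series, the mean was -0.0562 and 5 of 8 were below 0. In these 8 animals the mean within-animal log2 changes of the DE members were -0.226 for MRPS27, -0.23 for MRPL40, -0.309 for MRPL12, -0.329 for MRPS12 and -0.368 for MRPS36.

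**Figure D3:**
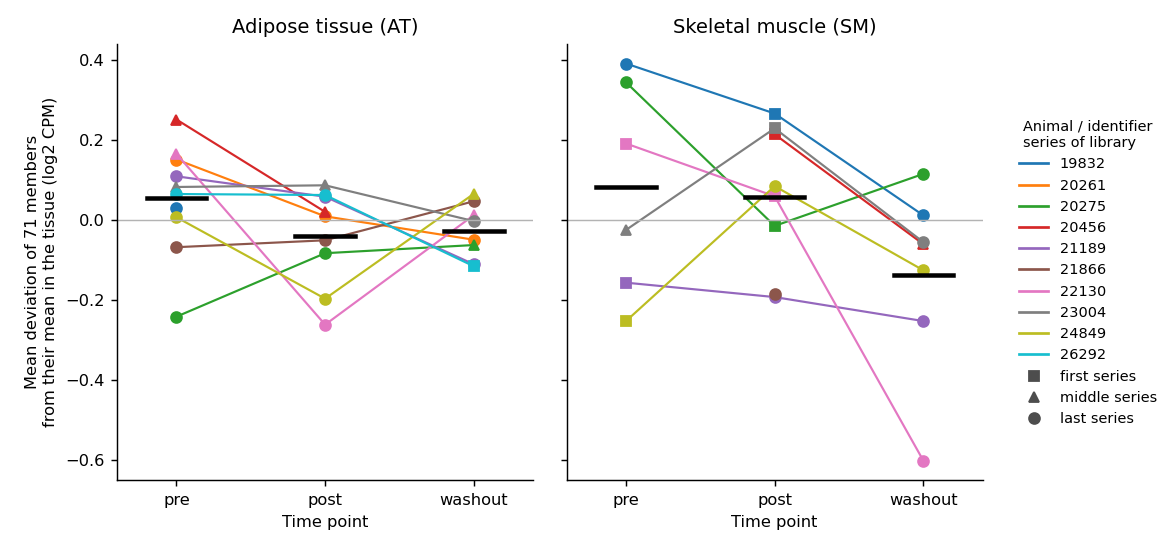
Mean log2 deviation of the 71 members in each library, for AT and SM at pre-treatment, post-treatment and washout; lines join libraries of 1 animal, marker shapes give the identifier series and black bars the group means. In SM the lowest washout library was that of animal 22130, and the change from post-treatment to washout was below 0 in 6 of 7 animals.

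Cell type markers moved over the same time points. The summed macrophage markers in AT had a median of 1780 CPM (869 to 3320) pre-treatment, 3410 CPM (1370 to 8030) post-treatment and 947 CPM (599 to 3100) at washout. From pre- to post-treatment 13 of 13 macrophage markers were fitted higher, 5 of them DE, and from post-treatment to washout 13 of 13 were DE lower. The 4 adipocyte markers were fitted lower post-treatment, with PLIN1 and LEP DE, and their sum went from a median of 18000 CPM (15600 to 32400) to 16400 CPM (9440 to 28000). The summed adipose progenitor markers had medians of 18400 CPM (12200 to 28100), 28300 CPM (15900 to 40300) and 16600 CPM (10200 to 34300) at the 3 time points. From pre- to post-treatment 6 of 7 were fitted higher, with COL1A1 DE. From post-treatment to washout 6 of 7 were fitted lower, with COL1A1 and PDGFRA DE, and PDGFRA was also DE lower at washout than pre-treatment. The 4 erythroid markers tested were fitted lower post-treatment, with SLC4A1 DE, and 3 of 4 were DE higher from post-treatment to washout. Of the 6 endothelial markers tested, 5 were fitted higher and 1 lower at washout against each earlier time point, and CDH5 and TIE1 were DE higher in both comparisons. The part of these markers in the values of the members was not tested. In bulk tissue, fewer cells of a type and less RNA per cell cannot be told apart.

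From post-treatment to washout in AT, 4 of 71 members were DE, 2 higher and 2 lower, where 35.4% of all genes were DE (17.6% higher and 17.8% lower). The members were thus called less often than the transcriptome as a whole, and their median log2 fold change was 0.0134, with 41 above 0 (57.7%, against 49.7% of all genes) and 30 below. MRPL2, a protein of the peptidyl transferase core, had a median of 27.9 CPM (21.7 to 32.5) post-treatment and 40 CPM (31 to 43.5) at washout. Only the highest post-treatment libraries reached the washout range, and the level was higher at washout in 7 of 8 animals, and the log2 fold change was 0.52 (SE 0.0933, adjusted p = 0.000364, edgeR's quasi-likelihood test). MRPS36 went from 29.7 CPM to a median of 44 CPM (31.4 to 61.1), and was higher in 6 of 8 animals (log2 fold change 0.42, SE 0.13, adjusted p = 0.0159). Its mean change was 0.111 in the 3 animals with both libraries in 1 identifier series and 0.639 in the other 5, and it was not DE with the series as a covariate.

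The 2 members that fell were MRPL17, at the exit tunnel, and MRPL42, a protein without a bacterial counterpart. MRPL17 had a median of 44.2 CPM (39.1 to 56.6) post-treatment and 38.5 CPM (25.6 to 46.6) at washout, and was lower in 8 of 8 animals (log2 fold change -0.40, SE 0.113, adjusted p = 0.0106). MRPL42 had a median of 60.4 CPM (47.7 to 68.7) and then 47.6 CPM (38.7 to 60.2), lower in 6 of 8 animals (log2 fold change -0.34, SE 0.0957, adjusted p = 0.0102). Within 1 series the mean changes were -0.283 for MRPL17 and -0.587 for MRPL42 (3 animals), beside -0.501 and -0.167 across series (5 animals). For MRPL2 they were 0.581 and 0.481. The split depended on scaling. With library size only in place of TMM, 10 members were DE, 9 higher and 1 lower, and the median of all genes was itself at 0.0735. Without animal 26292 the count was 9. The shares of all genes DE in these fits are not given here, so the counts are descriptions only.

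Washout against pre-treatment in AT gave 6 DE members of 71, 2 higher and 4 lower, where 20.5% of all genes were DE (12.5% higher and 7.96% lower). The fitted value was below 0 for 50 of 71 members (70.4%), where it was for 53.1% of all genes. The higher ones were MRPL2 (log2 fold change 0.27, SE 0.093, adjusted p = 0.0422) and MRPL32 (0.27, SE 0.0889, adjusted p = 0.0355). MRPL32 is cut by a mitochondrial protease before it joins the ribosome, and its median was 28.5 CPM (18.9 to 32.8) pre-treatment and 32.1 CPM (27.7 to 38.4) at washout. MRPL3, another protein of the peptidyl transferase core, was lower in 8 of 8 animals. Its median was 77.8 CPM (57.9 to 86) pre-treatment and 61.8 CPM (42.1 to 77.9) at washout. On the log2 scale it fell by 0.31 with an SE of 0.0822 (adjusted p = 0.00935).

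The other 3 lower members were MRPL54 (log2 fold change -0.39, adjusted p = 0.0289), MRPS34 (-0.30, adjusted p = 0.0419) and MRPL17 (-0.33, adjusted p = 0.0423), each lower in 7 of 8 animals. Levels of MRPL54 were low, at a median of 12.1 CPM (7.82 to 16.8) and then 9.24 CPM (4.69 to 14.5). MRPS34, a small subunit protein particular to mitochondria, had a median of 37.1 CPM (26.2 to 47.2) and then 28.3 CPM (24 to 43.4). Within 1 series (4 animals) and across series (4 animals) the mean changes were -0.487 and -0.11 for MRPS34, -0.517 and -0.233 for MRPL54, -0.396 and -0.205 for MRPL17, -0.399 and -0.247 for MRPL3, 0.205 and 0.338 for MRPL2, and 0.228 and 0.298 for MRPL32. With the series as a covariate MRPS34 and MRPL17 were not DE. Without animal 20275, whose pre-treatment library had the lowest MRPL32 level, neither MRPL2 nor MRPL32 was DE and the count was 4. The direction of this comparison depended on scaling. With library size only, 4 members were DE and all 4 were higher (MRPL2, MRPL32, MRPS18C and MRPS9), with the members' median at 0.0342 and that of all genes at 0.0839. The count was 2 without animal 20456, 21189, 22130 or 23004 and 3 without animal 20261. For these alternative fits the share of all genes DE is not given here. All 3 AT comparisons come from the same libraries, so they are not independent of each other.

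In SM, post-treatment levels did not differ detectably from pre-treatment levels. By edgeR's quasi-likelihood test 0 of 71 members were DE, where 0% of all 12617 genes tested were, and 0 of 71 had an unadjusted p under 0.05, where 3.25% of all genes did; DESeq2 and limma-voom also called 0. The members split evenly, 36 above 0 (50.7%, against 46.2% of all genes) and 35 below, with a median log2 fold change of 0.000877 and a median SE of 0.158. The smallest unadjusted p was that of MRPL55, with a median of 10 CPM (7.5 to 16.2) pre-treatment and 8.86 CPM (7.49 to 9.73) post-treatment, and its log2 fold change was -0.27 (SE 0.152, adjusted p = 1). It was followed by MRPS33 at 0.27 and MRPL36 at -0.23.

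At washout the SM levels of most members were fitted lower than post-treatment, without any passing the adjusted threshold. By edgeR's quasi-likelihood test 0 of 71 were DE, where 0.19% of all genes were, and 24 members (33.8%) were lower at an unadjusted p under 0.05, where 9.17% of all genes were. DESeq2 called 0, with 19 at an unadjusted p under 0.05, and limma-voom called 0, with 21. The share of all genes at that p was not computed for these methods. In all, 64 of 71 members (90.1%) were below 0, where 53.6% of all genes were, with a median log2 fold change of -0.229 against -0.0308 for all genes, and 12 members were lower in every one of the 7 animals with both libraries (16.9%, against 3.84% of all genes).

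The smallest unadjusted p belonged to MRPS33, MRPL13 and MRPL27. MRPS33, a small protein particular to the mitochondrial small subunit, had a median of 60.2 CPM (48.3 to 83.2) post-treatment and 47.7 CPM (28.3 to 51.6) at washout. Its log2 fold change was -0.57 with an SE of 0.16 (adjusted p = 0.129). MRPL13 had a median of 42.3 CPM (37.8 to 53.9) and then 30.8 CPM (24.8 to 35.5), and these ranges did not overlap. Its log2 fold change was -0.56 (SE 0.164, adjusted p = 0.144). MRPL27, which reaches toward the peptidyl transferase centre, had a median of 51.6 CPM (42 to 71.2) and then 38.2 CPM (30 to 41.7), also without overlap (log2 fold change -0.50, SE 0.149, adjusted p = 0.148).

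Washout against pre-treatment in SM gave values of the same kind and shares the washout libraries. By edgeR's quasi-likelihood test 0 of 71 members were DE, where 0.0634% of all genes were, and 25 (35.2%) were lower at an unadjusted p under 0.05, where 7.8% of all genes were; DESeq2 gave 0 DE and 18, and limma-voom 0 DE and 21. For DESeq2 and limma-voom the share of all genes at that p was not computed. Fitted values were below 0 for 64 of 71 members, where they were for 56.4% of all genes. The median was -0.261, against -0.0533 for all genes. MRPL40 had a median of 52.4 CPM (35.1 to 78.7) pre-treatment and 37.2 CPM (24.1 to 43.6) at washout (log2 fold change -0.50, SE 0.145, adjusted p = 0.226). MRPL24 (-0.45, adjusted p = 0.234) and MRPL27 (-0.50, adjusted p = 0.247) came next.

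Single animals and the identifier series bore on both SM washout comparisons. The mean change of the members from post-treatment to washout was -0.231 (SD 0.242, n = 7 animals) and ran from -0.661 in animal 22130, where 0 of 71 members were higher, to 0.13 in animal 20275. Without animal 22130, 14 members were lower at an unadjusted p under 0.05 against post-treatment and 5 against pre-treatment. Without the 4 post-treatment libraries low in muscle fiber markers the first count was 29, with 0 DE and a median of -0.33. The share of all genes at that p was not computed in these fits, so these counts are descriptions only. The post-treatment libraries left after dropping those 4 were all in the first series, which held no washout SM library. That fit cannot tell series from time point. With the identifier series as a covariate, 14 members (19.7%) were DE against post-treatment, all lower, where 21% of all genes were DE and 9.57% were DE lower. In the same fit 11 members (15.5%) were DE against pre-treatment, all lower, where 10.7% of all genes were DE and 5.09% were DE lower. No washout SM library was in the first series, so series and time point cannot be fully told apart. In the 2 animals with both libraries in 1 series, the mean changes from post-treatment to washout were -0.0602 (21189) and -0.211 (24849). The post-treatment libraries of both animals were among the 4 low in muscle fiber markers. From pre-treatment to washout the same-series mean changes were -0.38 (19832) and -0.228 (20275), a mean of -0.304. The 4 animals whose libraries crossed series had a mean of -0.198.

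Other markers differed over these SM time points as well. From post-treatment to washout, 6 of 6 endothelial markers were fitted higher, none of them DE, and the median of their sum went from 109 CPM (91 to 179) to 159 CPM (90.6 to 315). The summed adipose progenitor markers went from a median of 2560 CPM (248 to 17000) to 1230 CPM (378 to 4210). Taken singly, 5 of 7 adipose progenitor markers were fitted lower and 2 higher. The only 1 of the 7 with an unadjusted p under 0.05 in edgeR's quasi-likelihood test was higher. The adipocyte markers were fitted lower in 4 of 4 cases and the erythroid markers higher in 4 of 4. No adipose progenitor, adipocyte or erythroid marker was DE. The muscle fiber sum had a median of 208000 CPM (69700 to 312000) post-treatment and 261000 CPM (202000 to 283000) at washout. The part of these markers in the values of the members was not tested. The fit without the 4 libraries given above cannot separate muscle fiber markers from the identifier series.

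The change from post-treatment to washout differed between the tissues for some members. The tissue by time point interaction was DE for 12 of 71 members (16.9%), all 12 with the more positive change in AT, where 11.9% of all 12322 genes tested in both tissues were DE in this direction and 22.7% in either. The median difference, AT minus SM, was 0.253 on the log2 scale, against 0.0315 for all genes, and 58 of 71 members (81.7%) were above 0, where 52.3% of all genes were. The count was 6 without animal 21189, 8 without animal 23004 and also 8 without animal 22130, of which 1 then had the more negative change in AT. Without the 4 post-treatment SM libraries low in muscle fiber markers the count was 24 (33.8%), all with the more positive change in AT. In that fit 25.3% of all genes were DE in either direction. The post-treatment SM libraries left in it were all in the first identifier series, which held no washout SM library. Series and time point thus cannot be told apart for SM in that fit. With library size only the count was 36, with the median of all genes at 0.247. For this fit and those without 1 animal, the share of all genes DE is not given here.

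The largest differences were those of MRPS36 (0.86, SE 0.217, adjusted p = 0.00488), MRPS33 (0.82, adjusted p = 0.00543) and MRPL2 (0.78, SE 0.146, adjusted p = 0.000307, edgeR's quasi-likelihood test). MRPS36 had a median of 39.3 CPM (28 to 58.5) post-treatment and 29.8 CPM (19.6 to 41.6) at washout in SM, whereas in AT it rose. MRPS33 had a median of 40.3 CPM (23.3 to 45.2) and then 43.6 CPM (30.6 to 50.3) in AT, beside the lower washout values in SM given above. MRPL2 had a median of 23.5 CPM (19.8 to 27.8) and then 18.7 CPM (13.6 to 27.9) in SM. In SM both of its ranges overlapped, while in AT the washout levels of MRPL2 lay mostly above the post-treatment levels.

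The remaining 9 were MRPS18C (0.69), MRPL40 (0.67), MRPL27 (0.62), MRPL32 (0.58), MRPS21 (0.57), MRPS15 (0.54), MRPL13 (0.52), MRPL48 (0.50) and MRPL46 (0.47). They came from both subunits and included 3 proteins of the central protuberance, MRPL40, MRPL46 and MRPL48. MRPL2, MRPL40, MRPS18C, MRPS33 and MRPS36 were DE under each of the 18 alternative settings run for them. DESeq2 and the identifier series as a covariate were not run for the interaction, so its dependence on the series was not tested.

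**Figure D4:**
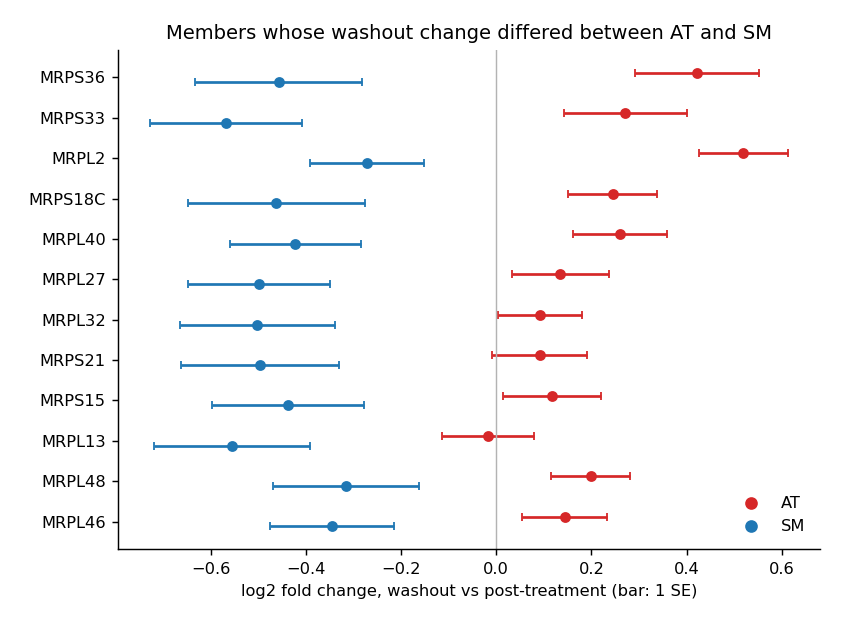
Log2 fold change from post-treatment to washout in AT and in SM, with bars of ±1 SE, for the 12 members whose change differed between the tissues. The SM values were below 0 for the 12 members, and the AT values were above 0 for all but MRPL13, which was at -0.02.

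For post- against pre-treatment the same interaction gave 0 DE members by edgeR's quasi-likelihood test, where 0.0487% of all genes were DE, with 6 members (8.45%) lower in AT at an unadjusted p under 0.05, where 6.52% of all genes were; limma-voom also called 0, with 12 at an unadjusted p under 0.05. For limma-voom the share of all genes at that p was not computed. The median difference was -0.114, and 58 of 71 members were below 0, where 51% of all genes were. Without the 4 post-treatment SM libraries low in muscle fiber markers, 6 members (8.45%) were DE, all lower in AT, where 7.62% of all genes were DE lower, so this count depended on those libraries.

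Before treatment, SM held more of most of these transcripts relative to its other transcripts than AT did. In the 6 animals with both pre-treatment libraries, with TMM scaling across the tissues, 57 of 71 members were DE between tissues, where 72.5% of all genes were, and 68 of 71 were fitted higher in SM, where 49.2% of all genes were. Of these, 56 (78.9%) were higher in SM, where 34.9% of all genes were, and 1 was lower, where 37.6% of all genes were. The median log2 fold change, SM against AT, was 0.928 for the members and -0.0387 for all genes. The member counts depended on scaling, with TMM factors of 1.25 to 1.42 in AT and 0.672 to 0.846 in SM. With library size only, 35 members were DE, 25 higher and 10 lower in SM, and the median of all genes was itself at -0.84. The share of all genes DE with that scaling is not given here. Relative to the median of all genes, the members' median was 0.967 higher with TMM and 0.964 higher with library size only, and 69 of 71 members lay above that median under both scalings.

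**Figure D5:**
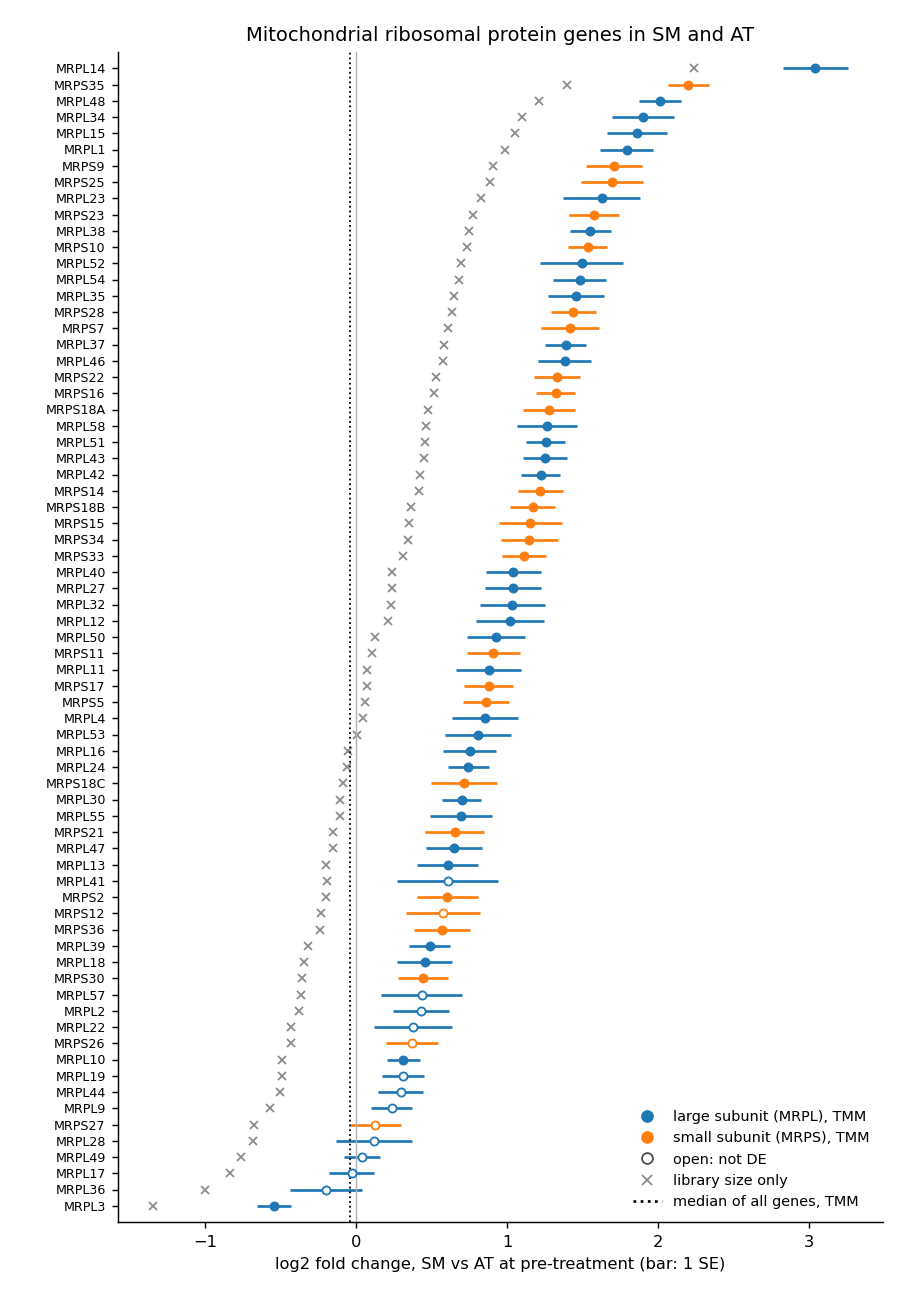
Log2 fold change, SM against AT, of the 71 members before treatment with TMM scaling (points with bars of ±1 SE) and with library size only (crosses); the dotted line is the median of all genes with TMM. MRPL14 had the highest value, at 3.04, and MRPL3 the lowest, at -0.54.

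MRPL14, whose protein binds the assembly factor MALSU1 until the subunits join, showed the widest gap. On the scale set across both tissues it stood at 4.59 ± 1.28 CPM in AT (SD, n = 6) and at 38 ± 9.97 CPM in SM (SD, n = 6). The AT libraries ran from 3.21 to 6.39 CPM and the SM libraries from 22.8 to 48.5 CPM, without overlap. The log2 fold change was 3.04 (SE 0.216, adjusted p = 3.93e-06), and it was 2.24 with library size only. MRPS35 ran from 19.5 to 27.3 CPM in AT and from 89.4 to 137 CPM in SM (log2 fold change 2.20, SE 0.136, adjusted p = 1.99e-06). MRPL48 ran from 16.5 to 28.7 CPM and from 58.2 to 134 CPM (log2 fold change 2.02).

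The next in order were MRPL34 (1.90), MRPL15 (1.86), MRPL1 (1.79), MRPS9 (1.71), MRPS25 (1.70), MRPL23 (1.63) and MRPS23 (1.58), drawn from both subunits. By symbol, 33 of 45 MRPL genes and 23 of 26 MRPS genes were DE higher in SM. With TMM scaling, the levels of 43 of 71 members did not overlap between the tissues. That share was not computed for all genes, of which 72.5% were DE between the tissues, so the count is a description only. The exception in direction was MRPL3, at 42.5 to 64 CPM in AT and 32.3 to 44.5 CPM in SM, or -0.54 in log2 fold change (adjusted p = 0.00214). With library size only MRPL3 was at -1.34 and a further 9 members were DE lower in SM (MRPL9, MRPL10, MRPL17, MRPL19, MRPL28, MRPL36, MRPL44, MRPL49 and MRPS27). Of these 9, MRPL17 and MRPL36 were below 0 under both scalings but not DE with TMM. The others were above 0 with TMM, so their direction depends on the scaling.

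The median member varied less between libraries than the median gene did, without matching genes for level. With each gene's time point means removed, the median SD of the log2 level was 0.221 in AT, against 0.328 for all genes, and 0.323 in SM, against 0.462. MRPL41 had the highest SD in both tissues (0.439 in AT and 0.533 in SM), and the lowest was that of MRPS16 in AT (0.104) and of MRPL43 in SM (0.208). Pairs of members tended to vary together. Over 2485 pairs, again with time point means removed, the median Pearson correlation was 0.274 across the 27 AT libraries and 0.494 across the 21 SM libraries. Correlations between pairs of all genes were not computed. These libraries share animals, depth and scaling, so the values are descriptions only. MRPL46 and MRPS11, which neighbour each other in the genome annotation, were the only adjacent pair among the 71 members matched to RefSeq. Their log2 fold changes in AT from pre- to post-treatment were -0.08 and -0.17.

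Other nuclear genes of mitochondrial translation were counted beside the members. From pre- to post-treatment in AT, 0 of 5 further ribosome subunits were DE, and 1 of 17 assembly factors was, MPV17L2 (log2 fold change -0.35, adjusted p = 0.0322). Among the translation factors 1 of 11 was DE, TSFM, the elongation factor that recharges TUFM (-0.31, adjusted p = 0.0429), and among the mitochondrial tRNA ligases 2 of 16 were, EARS2 (-0.35, adjusted p = 0.0208) and LARS2 (-0.30, adjusted p = 0.027). All 4 were lower post-treatment, where 8.49% of all genes were DE lower. With at most 2 genes DE in a list, these counts are too small to be set apart from that share.

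From post-treatment to washout in AT more of these genes were DE, as were more of all genes (35.4%, against 15.5% from pre- to post-treatment). The genes of these lists that were DE were higher. They were DAP3, a GTP-binding subunit of the small subunit (0.28, adjusted p = 0.0101), 4 of 17 assembly factors (METTL17 0.66, MTG2 0.64, MTERF4 0.35 and ERAL1 0.28), 4 of 11 translation factors (GUF1 0.44, GFM2 0.44, MTFMT 0.36 and MTIF3 0.29) and 3 of 16 tRNA ligases (RARS2 0.57, SARS2 0.56 and HARS2 0.54). Of all genes, 17.6% were DE higher in this comparison. In SM, 0 genes of these lists were DE in any of the 3 comparisons of time points.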

How the data were processed

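Per the labels and the study's methods, polyA RNA was made into stranded libraries, sequenced as paired 50 nucleotide reads and aligned with STAR to the MacaM rhesus genome. The authors deposited whole-number read counts per gene, not normalized, with human gene symbols; the counting tool and how reads matching several places were treated are not given in the sources used here, so counts of members with near-identical copies elsewhere are uncertain. Of 16103 entries, 70 repeats were dropped. A gene was kept in a tissue where 10% or more of its libraries reached 0.5 CPM (13367 in AT and 12617 in SM).

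Counts were fitted with edgeR 4.0.16 (R 4.3.3): TMM scaling, robust quasi-likelihood F test, time point plus animal, 1 fit per tissue, Benjamini-Hochberg adjustment over all genes tested; a prior count of 2 was used for log2 values. The biological coefficient of variation was 0.248 in AT and 0.356 in SM. Differences between tissues in a change were tested as interactions, with animal blocked within tissue. The AT and SM biopsies of 1 animal were thus not paired in that test. The pre-treatment tissue comparison was made within the 6 animals with both libraries. Levels are TMM-scaled CPM, not per length, so levels of different genes are not compared. The block rests on the animal named in the labels: deviations of libraries of 1 animal correlated at a median of 0.352 in AT (25 pairs) and 0.279 in SM (19 pairs), against -0.0354 and -0.0464 between animals. P-values measure the spread between these biopsies.

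Alternatives were DESeq2 1.42.0, limma-voom with quality weights (limma 3.58.1), library size only, no filter, at least 10 counts in every library, no block, the 2 time points alone, no fold limit, the identifier series as covariate and each animal left out. No filter, the 2 time points alone and the series covariate were run only for comparisons of time points within a tissue. DESeq2 was not run for the interactions. The named members are all DE members where 12 or fewer, otherwise the 10 largest increases and 10 largest decreases, the 3 of smallest p where none was DE, and the role lists in AT post- against pre-treatment; other genes named were chosen after their values were seen. The members and lists were chosen with earlier results of these data known. Steps were tested on simulated data.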

Additional observations from a re-analysis of the deposited data

Results flagged for a closer look

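The 20 members DE in at least 1 comparison other than SM against AT, and the summed level of the members, were screened. In 126 groups of 6 to 10 libraries, a library far from the rest was sought by Dixon's test at its 95% level. The test marked 7 groups, where by chance about 1 group in 20 is marked. Animal 20275 had the lowest pre-treatment AT level of MRPL17 (30.6 CPM, the others 43.0 to 53.6) and of MRPL32 (18.9 CPM, the others 26.2 to 32.8). At washout in AT, animal 22130 had the lowest MRPS21 (25.1 CPM, the others 31.9 to 36.6) and animal 23004 the lowest MRPS33 (30.6 CPM, the others 41.0 to 50.3). In SM, animal 19832 had the highest pre-treatment MRPL27 (87.0 CPM, the others 38.6 to 52.3) and MRPS34 (69.2 CPM, the others 33.6 to 41.9). Animal 22130 had the lowest washout MRPL40 in SM (24.1 CPM, the others 35.6 to 43.6).

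The change from post-treatment to washout differed between AT and SM by the tested interaction for 12 members. The differences, AT minus SM in log2 fold change, were 0.86 for MRPS36, 0.82 for MRPS33, 0.78 for MRPL2, 0.69 for MRPS18C, 0.67 for MRPL40, 0.62 for MRPL27, 0.58 for MRPL32, 0.57 for MRPS21, 0.54 for MRPS15, 0.52 for MRPL13, 0.50 for MRPL48 and 0.47 for MRPL46.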

How the results depend on the processing

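No DE member listed by the naming rule changed direction under the alternatives run. Outside that rule, 26 of 71 members changed sign between TMM and library size only in SM against AT, of which MRPL10 was DE under both. The members' medians closest to 0 changed sign under some of them. For AT washout against pre-treatment the median went from -0.0727 to 0.0342 with library size only. For AT washout against post-treatment (0.0134) it ran down to -0.0125 and for SM post- against pre-treatment (0.000877) down to -0.0611. Of the counts and medians that answer a comparison, 263 values stayed within the range set for them and 26 counts moved by over 1.5 times; of the values of named members, 548 stayed on their side of the threshold and 122 lost the call. For AT post- against pre-treatment (5 DE), limma-voom, the 2 time points alone, and the fit without the pre-treatment AT library of animal 20275 each gave 3, and leaving out 1 animal at a time gave 0 to 7. For AT washout against post-treatment (4 DE), no fold limit gave 7, library size only gave 10, the 2 time points alone gave 2, and leaving out 1 animal gave 3 to 9. For AT washout against pre-treatment (6 DE), leaving out 1 animal gave 2 to 6. With the identifier series as covariate, SM washout gave 14 DE against post-treatment and 11 against pre-treatment, where there were 0 without it; of all genes, 21% and 10.7% were DE in that fit. For AT minus SM, washout against post-treatment (12 DE), limma-voom gave 7, library size only 36, and leaving out 1 animal 6 to 14. For SM against AT before treatment (57 DE), library size only gave 35. Except where stated, the share of all genes DE under an alternative is not given here. Beyond these alternatives' own construction, the cause was not tested.

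Without the replicate block (animal left out of the model), the DE counts were 4, 5 and 3 in the AT comparisons (post- against pre-treatment, washout against post-treatment, washout against pre-treatment), 0 in each SM comparison, 9 for AT minus SM from post-treatment to washout and 59 for SM against AT. Chosen after seeing the data, edgeR's older quasi-likelihood method gave the same counts as reported, and leaving out the 4 post-treatment SM libraries low in muscle fiber markers gave 6 for AT minus SM from pre- to post-treatment, where there were 0, and 24 from post-treatment to washout. Leaving out those of animals 21189 and 21866 alone, which had the highest adipose progenitor sums, gave 8 for the latter. Without the 4 libraries, identifier series and time point cannot be told apart in SM from post-treatment to washout. MRPS24 had 0 to 3 counts per library in AT and 0 to 2 in SM, and the reason was not tested. The median spread of the members between libraries was wider in SM than in AT.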
